A study of Homo sapiens with 6 samples.

Results

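The enzymes that write, copy and remove DNA methylation were followed in human glioblastoma cells of the line U87MG, which had received short hairpin RNAs by lentivirus. The 8 genes DNMT1, UHRF1, HELLS, DNMT3A, DNMT3B, TET1, TET2 and TET3 were chosen by name and function, and all 8 were found among 22411 genes that had a transcript cluster annotated with a single symbol. Each was measured by 1 transcript cluster, and all 8 lay above the filter on dim features (a mean over the 6 arrays at or above 3.98 on the log2 scale), as did 14376 genes in all. The cells carried the hairpin sh50, the hairpin sh52 or a hairpin against GFP (shGFP, the control), with 2 arrays a group and 6 in all. All 3 groups, shGFP included, carried a hairpin, went through drug selection and were then kept for 5 days, per the labels. The model is thus 1 cell line in culture. The series title names SAT1, an enzyme of polyamine breakdown, but no target of sh50 or sh52 is stated in the labels or the design text. The labels do not say whether replicates 1 and 2 were separate infections, so the spread between them may be technical, and with 6 arrays the precision of each estimate is low.

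DNA methylation in mammals is the addition of a methyl group to cytosine, mostly where cytosine is followed by guanine. DNMT1 copies the pattern onto the new strand behind the replication fork. UHRF1 recognises DNA methylated on one strand and recruits DNMT1 there, and HELLS is a chromatin remodeller needed for methylation of packed chromatin. DNMT3A and DNMT3B add methyl groups to unmethylated sites. TET1, TET2 and TET3 oxidise methylcytosine, which opens the way to its removal by base excision repair or by dilution through replication. In dividing cells DNMT1, UHRF1 and HELLS are known to be expressed around S phase, and E2F factors are known regulators of genes of that phase.

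The arrays were first set against their labels. SAT1 stood at 9.36 and 8.35 (log2) on the sh50 arrays and at 10.83 and 7.84 on the sh52 arrays (replicate 1, then 2), against 9.45 and 8.96 on the shGFP arrays. The array labelled sh52 replicate 1 thus held the highest SAT1 value, and it also had the highest mean of the 8 spike-in controls, 9.83 against 8.88 to 9.26 on the other arrays. That array enters the sh52 results and those of both hairpins together, and values without it are given for the 8 genes, the lists and the genes named from them. All 10 mesenchymal and glial markers, among them SPARC and CHI3L1, passed the filter on dim features, with a median level of 13.82 to 15.02 over the arrays. With the mean of both hairpins 7 of these markers had a higher and 3 a lower estimate (median difference 0.13). VIM, lower by estimate, lay below both controls on all 4 hairpin arrays (-0.32, chosen after its values were seen). This held for 1 of the 10 markers and for 10.1% of all transcripts. SPARC, ANXA2 and CHI3L1 lay above both controls on all 4, so 3 of the 10 markers, against 8.98% of all transcripts. Of 5 blood and immune markers with a row none passed, of 5 epithelial markers EPCAM and CLDN4 passed, and of 4 neuronal markers 3 passed. The neuronal markers lay on both sides, with differences of 1.503 for SNAP25, 0.27 for GAD1 and -0.25 for SYT1 (adjusted p = 0.456, 0.658 and 0.842, limma), while SPARC and CHI3L1 differed by 1.05 and 3.05 (adjusted p = 0.469 and 0.456, limma). EPCAM and CLDN4 differed by 0.21 and -0.095 (adjusted p = 0.744 and 0.895, limma). When sh52 replicate 1 was left out, these differences were 1.46 for SNAP25, 0.33 for GAD1, 0.89 for SPARC, 3.24 for CHI3L1, 0.15 for EPCAM and -0.095 for CLDN4. Their part in the results below was not tested.

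Promoter sequences are shown for UHRF1 and HELLS, which lay lower on the hairpin arrays, and for TET2, which lay higher. The 250 bases before 19 RefSeq transcript starts of the 8 genes (build GRCh38.p14; other starts were not analysed here) were searched on both strands for E2F core letters. The first spelling searched for was TTCCCGC, one of the forms in which the site of these cell cycle factors is usually written. Another was TTGGCGC, which differs from it in the middle letters. The third spelling of the site was TTCGCGC, and the last of the spellings was TTGCCGC. Of 35116 such windows over all genes 10.9% held at least 1 of these, and 13.0% of all genes had such a window. The 150 bases before a start are printed 5′ to 3′ on the gene's strand, with E2F core letters of either strand in capitals. The UHRF1 stretch is chr19:4909351-4909500 (plus strand), before the first of 3 starts searched, and lies inside the RefSeq span of the gene, which begins upstream of it. The HELLS stretch is chr10:94545638-94545787 (plus strand), and the TET2 stretch is chr4:105145725-105145874 (plus strand), before the first of 2 starts.
UHRF1: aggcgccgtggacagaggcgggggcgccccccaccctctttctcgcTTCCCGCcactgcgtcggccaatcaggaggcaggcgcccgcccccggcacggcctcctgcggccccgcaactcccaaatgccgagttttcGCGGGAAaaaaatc
HELLS: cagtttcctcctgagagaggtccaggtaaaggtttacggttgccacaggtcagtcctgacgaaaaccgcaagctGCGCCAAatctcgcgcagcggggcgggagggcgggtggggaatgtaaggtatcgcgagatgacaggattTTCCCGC
TET2: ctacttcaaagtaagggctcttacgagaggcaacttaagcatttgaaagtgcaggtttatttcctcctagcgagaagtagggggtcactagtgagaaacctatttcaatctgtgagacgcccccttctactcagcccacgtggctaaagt
UHRF1 held 2 matches there, which began at positions -104 and -14 relative to the start, and HELLS held 2, at -76 and -7. The second UHRF1 window held 1 match at -159, and 1 of the 2 TET3 windows held 1 match. The windows of DNMT1, DNMT3A, DNMT3B, TET1 and TET2 held none of these letters, DNMT1 included although it lay lower with UHRF1 and HELLS. CCAAT, the letters of another common promoter motif, were found in at least 1 window of UHRF1, HELLS, DNMT3B, TET1 and TET3. Over all genes 37.0% had such a window, and 32.0% of all windows held the letters. Genes with more windows have more chances of a match. The cell cycle homology letters TTTGAA and TTTAAA were found only in the first TET2 window, which held TTTGAA at -146 and -109. Over all genes 25.5% had a window with these letters, and 21.9% of all windows held them. No match of one motif overlapped a match of another. A match is a description of these letters and is no evidence of binding.

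The maintenance genes DNMT1, UHRF1 and HELLS lay lower on every hairpin array than on either control array, as did 10.1% of all transcripts tested. DNMT1, the maintenance methyltransferase, stood at 12.17 and 11.35 (log2) with sh50 and at 11.08 and 11.89 with sh52, against 12.57 and 12.66 with shGFP. The shGFP arrays differed by less than 0.1, while sh50 replicate 2 and the array labelled sh52 replicate 1 were the lowest. The means were 11.76 ± 0.58 (SD, n = 2) for sh50 and 11.49 ± 0.58 for sh52, against 12.61 ± 0.061 for shGFP. By limma DNMT1 differed from shGFP by -0.85 ± 0.37 (SE) with sh50, by -1.13 ± 0.37 with sh52 and by -0.99 ± 0.32 with the mean of both, 1.99-fold lower (adjusted p = 0.629, 0.526 and 0.492). For both hairpins together the 95% interval was -1.79 to -0.19. None of these passed an adjusted p of 0.05, and the folds hold for values read as log2 without further scaling.

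UHRF1, the reader that guides DNMT1 to new strands, varied between the arrays of both hairpins. It stood at 9.52 and 7.93 with sh50 and at 8.72 and 9.84 with sh52, against 10.10 and 10.47 with shGFP. The lowest array was sh50 replicate 2 and the highest hairpin array was sh52 replicate 2, which still lay below both controls. The means were 8.72 ± 1.13 for sh50 and 9.28 ± 0.79 for sh52, against 10.28 ± 0.26 for shGFP (SD, n = 2 each). UHRF1 differed by -1.56 ± 0.61 (SE) with sh50, by -1.002 ± 0.61 with sh52 and by -1.28 ± 0.53 with the mean of both, 2.43-fold lower (adjusted p = 0.596, 0.680 and 0.549, limma). The interval of the mean ran from -2.58 to 0.024 and so included 0.

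HELLS, the remodeller, had the largest difference of the 8 genes. It stood at 10.14 and 8.29 with sh50 and at 9.49 and 9.43 with sh52, against 10.89 and 11.03 with shGFP. The sh52 arrays nearly coincided, while the sh50 arrays were 1.85 apart. The means were 9.22 ± 1.31 for sh50 and 9.46 ± 0.038 for sh52, against 10.96 ± 0.098 for shGFP (SD, n = 2 each). HELLS differed by -1.74 ± 0.57 (SE) with sh50, by -1.50 ± 0.57 with sh52 and by -1.62 ± 0.49 with the mean of both, 3.08-fold lower (adjusted p = 0.539, 0.547 and 0.472, limma). The interval of the mean ran from -2.85 to -0.40, and the gene did not pass the threshold.

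**Figure D1:**
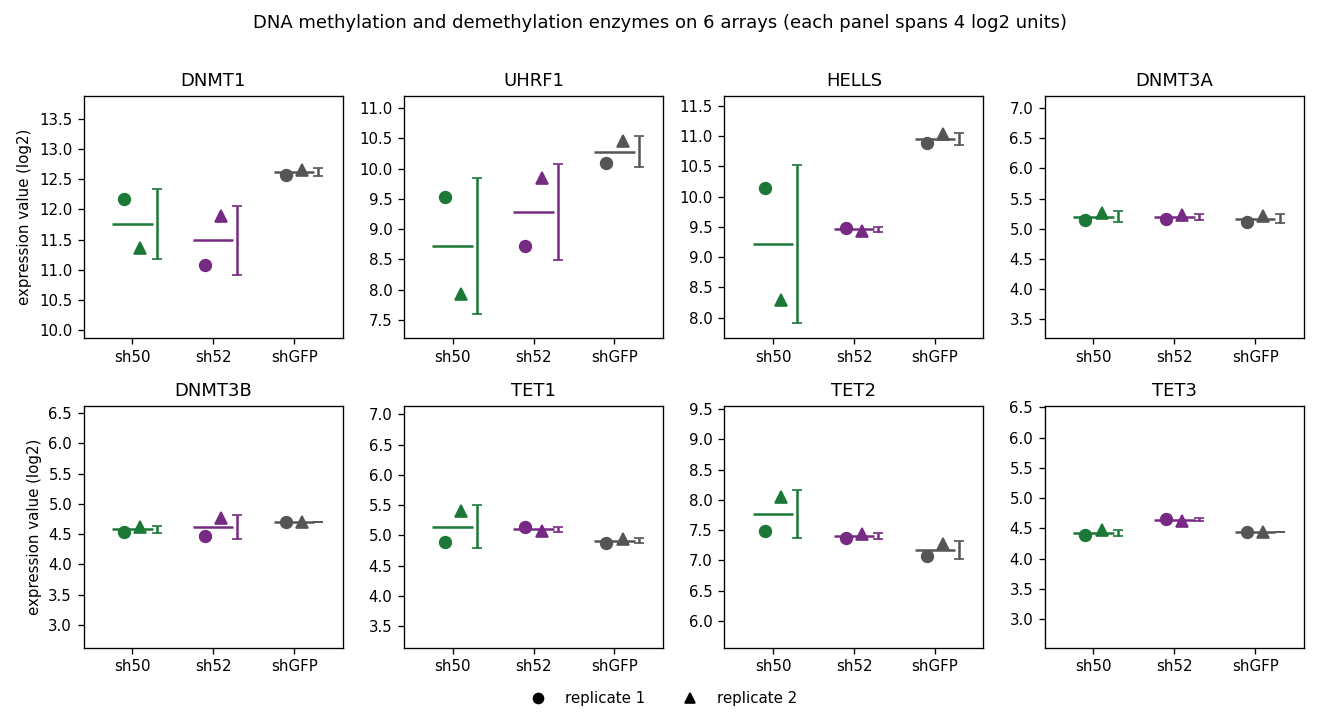
Expression value (log2, vertical axis) of each of the 8 genes on the sh50, sh52 and shGFP arrays, with a circle for replicate 1, a triangle for replicate 2, a horizontal line for the mean and a bar for the SD (n = 2). DNMT1, UHRF1 and HELLS lie below both shGFP arrays on all 4 hairpin arrays and TET2 lies above both, while DNMT3A stays between 5.12 and 5.26 on the 6 arrays.

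The size of these differences moved with single arrays. Since the hairpin and control arrays did not overlap, leaving out 1 array could not turn their direction. Without sh50 replicate 2 the sh50 difference was -0.45 for DNMT1, -0.76 for UHRF1 and -0.82 for HELLS. Without the array labelled sh52 replicate 1 the sh52 difference was -0.72 for DNMT1, -0.44 for UHRF1 and -1.53 for HELLS, and both hairpins together stood at -0.79, -0.999 and -1.64 for the 3 genes. With any 1 array left out, the mean of both stayed between -1.19 and -0.79 for DNMT1, between -1.68 and -0.88 for UHRF1 and between -2.09 and -1.16 for HELLS. Set against the same-numbered control array, DNMT1 differed by -0.40 and -1.30 with sh50 and by -1.49 and -0.76 with sh52. UHRF1 differed by -0.57 and -2.54 with sh50 and by -1.38 and -0.63 with sh52. HELLS differed by -0.75 and -2.74 with sh50 and by -1.40 and -1.60 with sh52.

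No difference of the genes that add methyl groups to new sites passed the threshold. DNMT3A stood at 5.14 and 5.26 with sh50 and at 5.16 and 5.23 with sh52, against 5.12 and 5.22 with shGFP. The 3 groups overlapped, and the mean of both hairpins differed by 0.030 ± 0.13 (SE), with a 95% interval from -0.30 to 0.36 (adjusted p = 0.974, limma). DNMT3B stood at 4.54 and 4.62 with sh50 and at 4.48 and 4.76 with sh52, against 4.70 and 4.70 with shGFP. Of the hairpin arrays 3 lay below both controls and sh52 replicate 2 lay above both. DNMT3B differed by -0.099 ± 0.15 with the mean of both, with an interval from -0.46 to 0.26 (adjusted p = 0.906, limma). The sign for DNMT3A turned in the mean of both without sh50 replicate 2 or without shGFP replicate 1 (down to -0.020), so it has no settled direction here. With sh52 replicate 1 left out, the sh52 difference was 0.065 for DNMT3A, and for DNMT3B it turned to 0.067. Both hairpins together then stood at 0.049 for DNMT3A and at -0.027 for DNMT3B.

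Of the genes that oxidise methylcytosine, TET2 lay above both controls on all 4 hairpin arrays. It stood at 7.48 and 8.04 with sh50 and at 7.37 and 7.44 with sh52, against 7.07 and 7.27 with shGFP. The array sh50 replicate 2, lowest for UHRF1 and HELLS, was the highest for TET2, and the other 3 hairpin arrays lay within 0.42 of the lower control. The means were 7.76 ± 0.40 for sh50 and 7.41 ± 0.051 for sh52, against 7.17 ± 0.14 for shGFP (SD, n = 2 each). TET2 differed by 0.59 ± 0.23 (SE) with sh50, by 0.24 ± 0.23 with sh52 and by 0.42 ± 0.20 with the mean of both, 1.33-fold higher (adjusted p = 0.589, 0.800 and 0.594, limma). The interval of the mean ran from -0.074 to 0.91, and without sh50 replicate 2 the sh50 difference was 0.31. Leaving out the array labelled sh52 replicate 1, the sh52 difference was 0.27 and that of both hairpins together 0.43.

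TET1 stood at 4.89 and 5.40 with sh50 and at 5.13 and 5.07 with sh52, against 4.88 and 4.94 with shGFP. One sh50 array lay between the controls, and the other 3 hairpin arrays lay above both. The mean of both hairpins differed by 0.21 ± 0.18 (SE; interval -0.24 to 0.66; adjusted p = 0.800, limma). TET3 stood at 4.39 and 4.46 with sh50 and at 4.66 and 4.63 with sh52, against 4.44 and 4.44 with shGFP. Both sh52 arrays lay above the controls, while the sh50 arrays lay on either side of them. The differences were -0.012 ± 0.14 with sh50 and 0.20 ± 0.14 with sh52 (SE; adjusted p = 0.996 and 0.718, limma), and the sign for sh50 turned when arrays were centred on their median (0.015) or quantile normalized (0.013). DNMT3A, DNMT3B, TET1 and TET3 all lay under 5.5 on every array, within the 1.90 to 7.05 spanned by 23 background control rows that differ in base composition, so these were dim signals. They lay above the median of those rows, which was 2.59 to 2.82 over the arrays. Without the array labelled sh52 replicate 1 the sh52 difference was 0.16 for TET1 and 0.19 for TET3, and both hairpins together stood at 0.19 for TET1 and 0.089 for TET3.

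**Figure D2:**
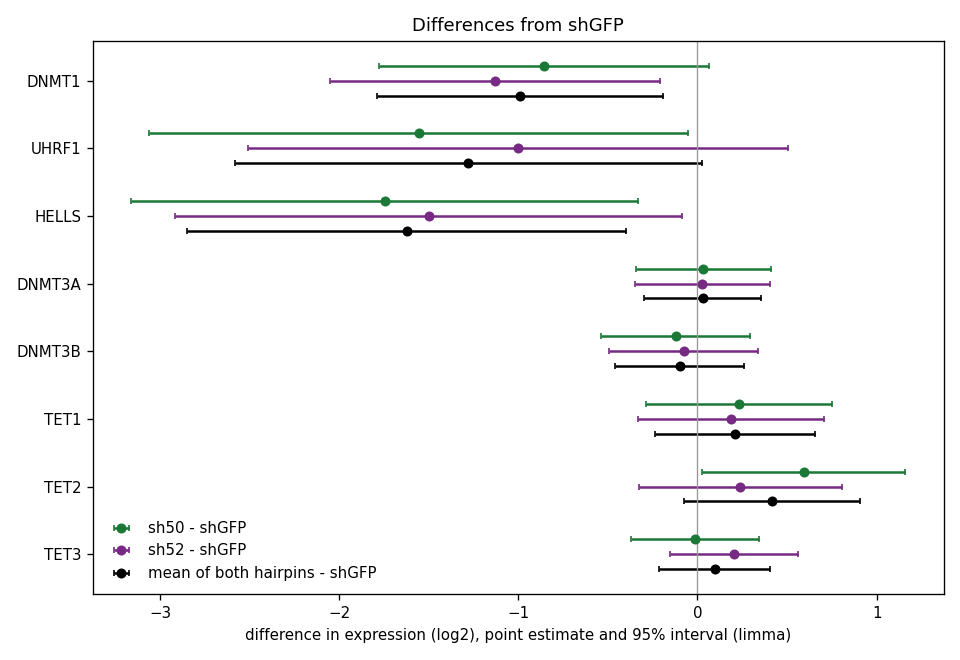
Difference from shGFP (log2, horizontal axis) for each of the 8 genes, with points for the limma estimate of sh50, sh52 and the mean of both hairpins and bars for the 95% interval. The estimates of the mean run from -1.62 for HELLS to 0.42 for TET2, and the intervals of the mean leave out 0 for DNMT1 and HELLS before any adjustment over all transcripts.

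Counted over the 8 genes, the share with arrays that did not overlap can be read against all transcripts. With the mean of both hairpins against shGFP, 0 of 33764 transcripts (0%) passed an adjusted p of 0.05 by limma, 3102 (9.19%) had an unadjusted p under 0.05, and of the 8 genes 0 passed and 2 had an unadjusted p under 0.05. All 4 hairpin arrays lay below both controls for 3 of the 8 genes, against 10.1% of all transcripts, and above both for 1, against 8.98%. With sh50 both arrays lay below both controls for 4 genes (DNMT1, UHRF1, HELLS and DNMT3B), against 20.9% of all transcripts, and above for 1 (TET2), against 18.4%. With sh52 they lay below for 3 (DNMT1, UHRF1 and HELLS), against 19.5%, and above for 3 (TET1, TET2 and TET3), against 20.2%. In these single-hairpin comparisons 0 transcripts passed by limma (0% in each), while 2784 (8.25%) with sh50 and 2964 (8.78%) with sh52 had an unadjusted p under 0.05, among them 3 and 2 of the 8 genes. With 1 array left out the counts at an unadjusted p under 0.05 moved to between 1718 and 4650 for both hairpins together, lowest without shGFP replicate 1 and highest without sh52 replicate 2. They moved to between 1508 and 3085 for sh50, lowest without its replicate 2, and to between 1660 and 5315 for sh52, lowest without its replicate 1 and highest without its replicate 2. Of the 8 genes such a p was then held by 0 to 4 with both hairpins together, 0 to 4 with sh50 and 0 to 2 with sh52. The median difference over the 8 genes was -0.067 with sh50, -0.025 with sh52 and -0.034 with the mean of both, beside -0.013, 0.00070 and -0.0045 over all transcripts, with DNMT1, UHRF1 and HELLS on the lower side and TET2 on the higher. Both hairpins were set against the same shGFP arrays, so the 2 comparisons are not independent.

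The hairpins were also set against each other. Of 33764 transcripts 0 passed by limma (0%), 2138 (6.33%) had an unadjusted p under 0.05, and of the 8 genes 0 passed and 0 had an unadjusted p under 0.05. DNMT1 differed by -0.27 with sh52 against sh50, with a 95% interval from -1.19 to 0.65. UHRF1 differed by 0.55 (-0.95 to 2.06) and HELLS by 0.24 (-1.17 to 1.66), intervals wide enough to hold differences of over 2-fold. For TET2 the sh52 arrays lay below both sh50 arrays (-0.35, interval -0.92 to 0.21), and for TET3 they lay above both (0.22, interval -0.14 to 0.57), against 16.6% and 17.3% of all transcripts (adjusted p = 0.856 and 0.862, limma). DNMT3A, DNMT3B and TET1 differed by -0.0060, 0.044 and -0.047, and DNMT3B turned when arrays were centred (-0.026) or quantile normalized (-0.0098). With sh52 replicate 1 left out, the differences were 0.13 for DNMT1, 1.12 for UHRF1, 0.22 for HELLS, -0.32 for TET2 and 0.20 for TET3. Those of UHRF1 and HELLS turned to -0.24 and -0.68 without sh50 replicate 2, so for the maintenance genes the order of the hairpins is not settled.

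Genes of S phase lay lower on the same arrays as DNMT1, UHRF1 and HELLS. Of 19 genes listed 17 had a row and passed the filter, all 17 had a lower estimate with the mean of both hairpins, and 16, all but CCNE2, lay below both controls on each of the 4 hairpin arrays. Over all transcripts 50.8% of estimates were lower and 49.2% higher, and 10.1% lay below both controls on all 4 arrays. None was called over all transcripts by limma, and the median difference was -1.08, beside -0.0045 over all transcripts. POLA1, the catalytic subunit of polymerase alpha, differed by -1.49 ± 0.39 (SE), and MCM3, MCM5 and MCM6, parts of the replicative helicase, by -1.41 ± 0.45, -1.35 ± 0.45 and -1.31 ± 0.46 (adjusted p = 0.469, 0.489, 0.499 and 0.505, limma). Measured from the shGFP mean, the list's median stood at -0.50 and -1.75 on the sh50 arrays and at -1.16 and -0.84 on the sh52 arrays. DNMT1 stood at -0.45 and -1.26 on the sh50 arrays and at -1.54 and -0.72 on the sh52 arrays, UHRF1 at -0.76, -2.36, -1.56 and -0.44, and HELLS at -0.82, -2.67, -1.47 and -1.53, in the same order. DNMT1 lay below the list's median on the array labelled sh52 replicate 1 and above it on the other hairpin arrays, while HELLS lay below it on all 4 arrays. Leaving out the array labelled sh52 replicate 1, the median of the S phase genes was -0.996, with POLA1 at -1.36, MCM3 at -1.19, MCM5 at -1.07 and MCM6 at -1.29. In a bulk sample fewer cells in S phase and less RNA per cell cannot be told apart, and the part of cell cycle in the maintenance genes was not tested.

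**Figure D3:**
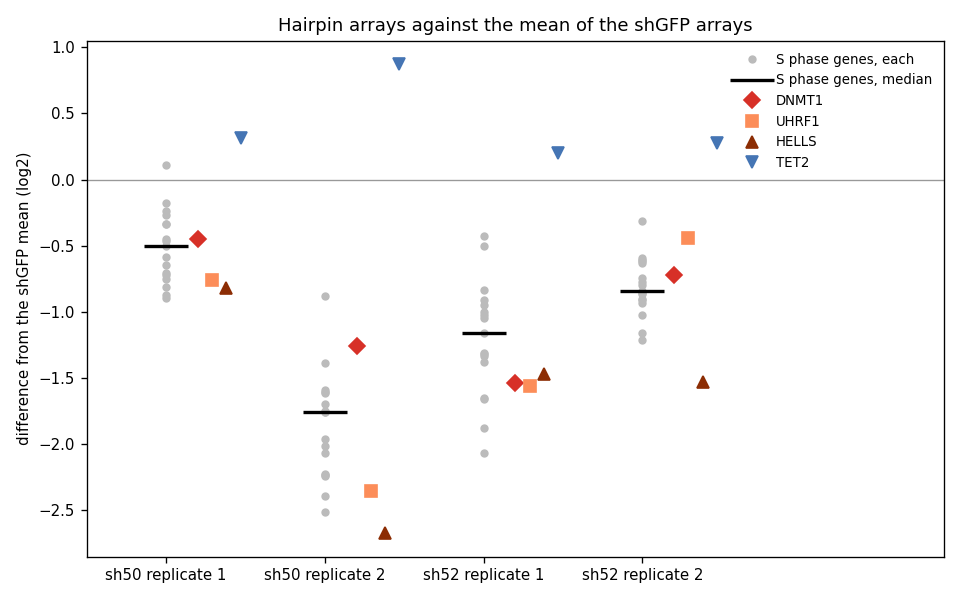
Difference from the mean of the shGFP arrays (log2, vertical axis) on each of the 4 hairpin arrays (horizontal axis), with grey points for 17 S phase genes, a black line for their median and coloured symbols for DNMT1, UHRF1, HELLS and TET2. The median line is lowest on sh50 replicate 2 (-1.75), where HELLS is also lowest (-2.67) and TET2 highest (0.87).

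Genes listed as partners of maintenance methylation or as related to it lay mostly on the same side. Of 13 listed genes 12 passed the filter, 11 had a lower and 1 a higher estimate with the mean of both hairpins, and 9 lay below both controls on each of the 4 hairpin arrays, against 10.1% of all transcripts. The median was -0.58, and 0 were called over all transcripts by limma. The list was broad and held TRDMT1, QSER1 and DNMT3L, which are not partners of maintenance. TRDMT1 was the 1 higher gene (0.056), QSER1 was among the 9 (-0.67), and DNMT3L did not pass. CDCA7, the partner that activates HELLS and recruits it to chromatin, stood at 7.29 and 6.03 with sh50 and at 6.30 and 6.91 with sh52, against 7.97 and 8.23 with shGFP. All 4 hairpin arrays lay well below the controls (-1.47 ± 0.39, SE). PCLAF, a PCNA-binding factor, differed by -1.33 ± 0.43, PCNA, the sliding clamp of replication, by -0.94 ± 0.35 and CDCA7L, a relative of CDCA7, by -0.93 ± 0.23. Their adjusted p by limma lay between 0.469 and 0.525. With sh52 replicate 1 left out, the median was -0.48, and CDCA7 stood at -1.32, PCLAF at -1.20, PCNA at -0.89 and CDCA7L at -0.82.

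Genes of the families that hold the readers of methylated DNA had mostly small differences. Of 9 genes of these families that passed, of 10 listed, 7 had a lower and 2 a higher estimate, with a median of -0.010, and 0 were called. The list went by family, and MBD3, MBD5 and MBD6 are not known as selective readers of methylated DNA. MBD5 stood at 8.31 and 8.98 with sh50 and at 9.05 and 8.30 with sh52, against 8.11 and 8.11 with shGFP, a difference of 0.55 ± 0.29 (SE). ZBTB4, a zinc finger reader, stood at 8.91 and 9.24 with sh50 and at 8.80 and 8.91 with sh52, against 8.59 and 8.57 with shGFP (0.39 ± 0.15). For both genes all 4 hairpin arrays lay above both controls, as for 8.98% of all transcripts (adjusted p = 0.633 and 0.535, limma). This held for 2 of the 9 genes. On the other side, 1 of the 9, MBD3, lay below both controls on all 4 arrays, against 10.1% of all transcripts. With sh52 replicate 1 left out, the median was -0.067, and MBD5 differed by 0.36 and ZBTB4 by 0.41. MBD1 and MBD2 differed by -0.17 and -0.15 on all arrays, and by -0.11 and -0.17 without it.

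Genes that act after or beside the TET enzymes were spread about 0. Of 17 that passed, of 20 listed, 9 had a lower and 8 a higher estimate, with a median of -0.095, and 0 were called. The sign of that median is not settled, since it was 0.20 without shGFP replicate 2 and -0.021 without sh52 replicate 1. IDH1, which makes the 2-oxoglutarate that TET enzymes consume, stood at 9.29 and 10.32 with sh50 and at 9.93 and 9.86 with sh52, against 8.55 and 9.15 with shGFP. All 4 hairpin arrays lay above both controls (1.00 ± 0.33, SE; adjusted p = 0.498, limma). This held for 3 of the 17 genes, against 8.98% of all transcripts. On the other side, 2 of the 17 lay below both controls on all 4 arrays, against 10.1%. XRCC1 and PARP1, of single-strand break repair, differed by -0.63 ± 0.45 and -0.55 ± 0.29, and DCAF1, a ligase adaptor reported to act on TET proteins, by -0.60 ± 0.30. XRCC1 differed by 1.23 between the shGFP arrays, and its estimate was -0.019 without shGFP replicate 1 and -1.25 without shGFP replicate 2. Genes of the methyl donor cycle had a median of -0.24 over 11 that passed of 14 listed, 8 lower and 3 higher, and 0 were called. MAT2B, a regulatory subunit of the enzyme that makes S-adenosylmethionine, lay below both controls on all 4 hairpin arrays (-0.54 ± 0.15), as did MTHFD1 of the folate cycle (-0.70 ± 0.40). This held for 3 of the 11 genes in all, against 10.1% of all transcripts, and 0 of the 11 lay above both. AMD1, which draws S-adenosylmethionine into polyamine synthesis, differed by -0.68 ± 0.53 and MAT2A by -0.41 ± 0.46, the last with a range from -1.10 to 0.27 with 1 array left out. Several of these moved with the array labelled sh52 replicate 1. Without it the median of the methyl donor cycle was -0.17, MTHFD1 differed by -0.35, AMD1 by -0.24, MAT2A by -0.17, DCAF1 by -0.35 and PARP1 by -0.32, while MAT2B stood at -0.58, XRCC1 at -0.64 and IDH1 at 0.98.

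**Figure D4:**
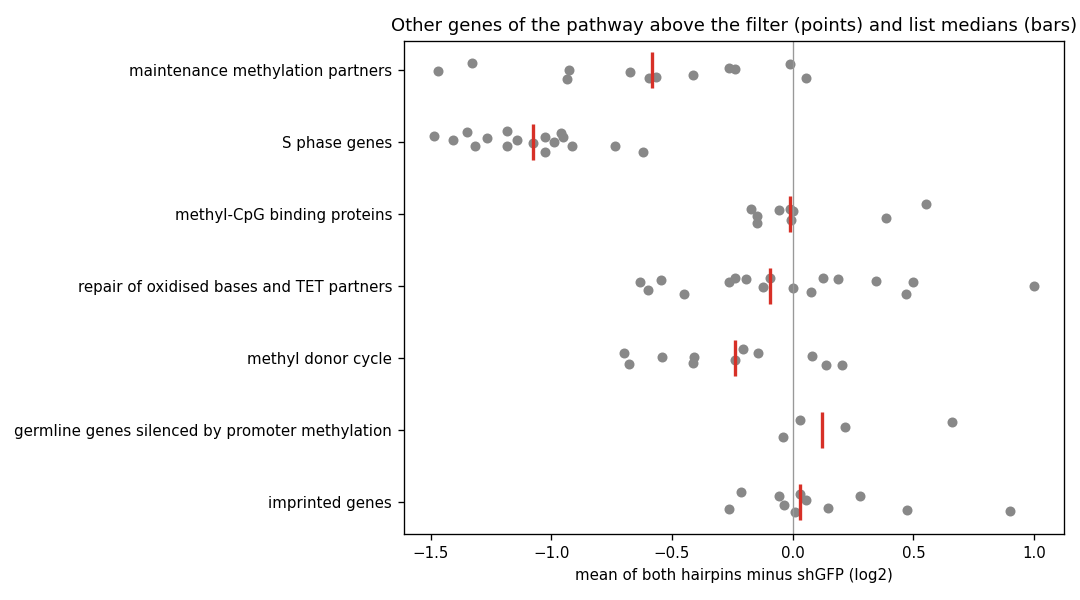
Difference with the mean of both hairpins against shGFP (log2, horizontal axis) for the genes of 7 lists that passed the filter, with a point for each gene and a red bar for the list's median. The S phase median is -1.08 and that of the maintenance partners and related genes -0.58, while the other 5 medians lie between -0.24 and 0.12. The 0.12 is that of the germline genes and rests on 4 genes, of which DAZL passed the filter through its hairpin arrays. Over all 22 germline genes with a row the median was 0.016.

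Germline genes that methylation is known to keep silent were mostly below the filter on dim features. Of 23 germline genes silenced by promoter methylation in body cells, 22 had a row and 4 passed the filter. Over the 22 the median difference with the mean of both hairpins was 0.016, with 14 higher and 8 lower. DAZL, a germ cell RNA-binding protein, stood at 4.11 and 4.61 with sh50 and at 5.05 and 4.02 with sh52, against 3.89 and 3.69 with shGFP. All 4 of its hairpin arrays lay above both controls, which held for 1 of the 22 genes and for 1 of the 4 that passed. The share of 8.98% was taken over transcripts above the filter, so it cannot be set against the 22. DAZL differed by 0.66 ± 0.32 (SE; adjusted p = 0.606, limma), it passed the filter through its hairpin arrays, and it differed by 0.40 with sh52 replicate 1 left out. SSX1 differed by 0.22, MAGEA1 by -0.042 and MAGEC2 by 0.029, and both MAGE genes turned with 1 array left out (ranges -0.17 to 0.086 and -0.042 to 0.10). Genes listed as imprinted had a median of 0.030 over 11 that passed, of 20 listed and 15 with a row. Of the 11, 7 were higher and 4 lower, and 0 were called. Whether each is imprinted in these cells was not measured. DIRAS3 stood at 6.48 and 5.13 with sh50 and at 7.20 and 5.35 with sh52, against 5.72 and 4.56 with shGFP, so it was higher on the replicate 1 array of each group. Set against the same-numbered control array, DIRAS3 differed by 0.76 and 0.57 with sh50 and by 1.48 and 0.79 with sh52. The mean of both differed by 0.90 ± 0.67 for DIRAS3, by 0.47 ± 0.27 for IGF2R, by 0.28 ± 0.23 for PLAGL1 and by -0.26 ± 0.26 for GRB10 (SE; adjusted p between 0.674 and 0.840, limma). Leaving out the array labelled sh52 replicate 1, DIRAS3 differed by 0.44, IGF2R by 0.56, PLAGL1 by 0.25 and GRB10 by -0.068. SSX1 then differed by 0.14, MAGEA1 by -0.026 and MAGEC2 by 0.070, and the median of the imprinted genes was 0.037.

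Replicate 1 was set against replicate 2 with the hairpin group in the fit. Of 33764 transcripts 9 passed (0.0267%), and of the 8 genes 0 did, with 0 at an unadjusted p under 0.05, against 10.4% of all transcripts. DNMT1 differed between replicates 1 and 2 by 0.81 with sh50 and by -0.81 with sh52, against -0.087 with shGFP. UHRF1 differed by 1.60 with sh50 and by -1.12 with sh52, against -0.37 with shGFP. The replicates of the 2 hairpins thus lay in opposite order for both genes, and the fitted differences were -0.029 ± 0.32 and 0.036 ± 0.53 (SE; adjusted p = 0.992 and 0.995, limma). HELLS differed by 1.85 with sh50 and by 0.054 with sh52, against -0.14 with shGFP, a fitted difference of 0.59 ± 0.42 (adjusted p = 0.725, limma) that was -0.042 with either sh50 array left out. TET2 had the lower value in replicate 1 in all 3 groups (-0.56 with sh50, -0.072 with sh52 and -0.20 with shGFP), as did DNMT3A (-0.12, -0.075 and -0.10). Such a shared lower side was found for 2 of the 8 genes and 20.1% of all transcripts, and a shared higher side for 0 of the 8 and 11.3% of all. The fitted differences were -0.28 ± 0.16 for TET2 and -0.100 ± 0.13 for DNMT3A (adjusted p = 0.641 and 0.884, limma). In size, that of TET2 lay below its 0.42 with the mean of both hairpins and above its 0.24 with sh52. DNMT3B, TET1 and TET3 differed by -0.12 ± 0.14, -0.17 ± 0.17 and -0.012 ± 0.13. The shGFP replicates lay within 0.37 of each other for all 8 genes, while the sh50 replicates were over 0.5 apart for DNMT1, UHRF1, HELLS, TET1 and TET2.

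**Figure D5:**
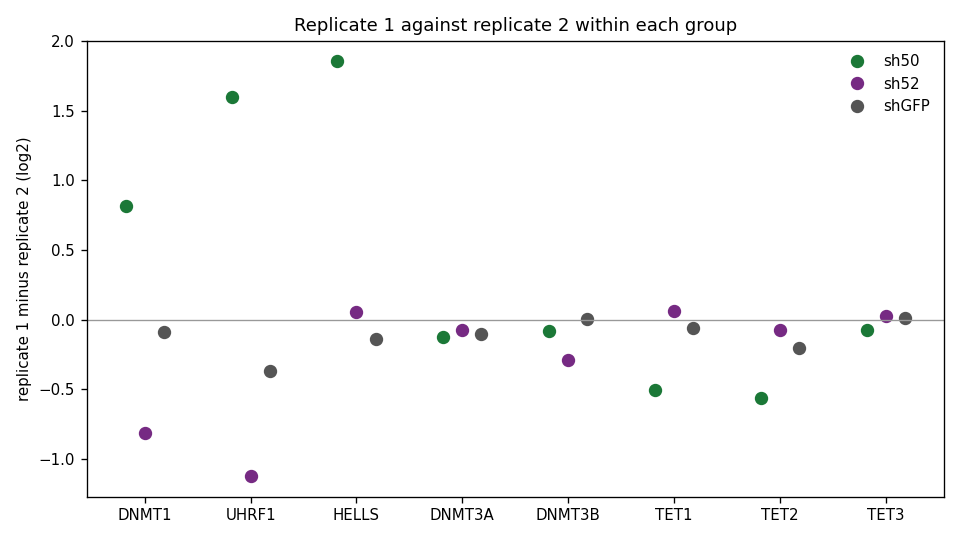
Replicate 1 minus replicate 2 (log2, vertical axis) for each of the 8 genes (horizontal axis), with a point each for the sh50, sh52 and shGFP groups. The sh50 points are highest for UHRF1 (1.60) and HELLS (1.85), the sh52 points are lowest for DNMT1 (-0.81) and UHRF1 (-1.12), and the shGFP points stay between -0.37 and 0.0079.

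The genes whose values over the 6 arrays were most like those of each member were taken among 14375 other genes by Pearson's r, as a description. DNMT1 was followed most closely by NCAPH2 and RAD51C (r = 0.996 and 0.995), UHRF1 by POLE2 and ERI1 (0.994 each) and HELLS by WDHD1 and KRT8P12 (0.997 and 0.996). For DNMT3A they were SPPL3 and FBXL19 (0.993 and 0.991), and for DNMT3B the transcripts named MIR3126 and CPTP (0.992 and 0.989). For TET1 they were CYP17A1 and ANKRD17 (0.995 and 0.992), for TET2 TRIM37 and LYSMD2 (0.998 and 0.991) and for TET3 MIR4440 and CMTM3 (0.993 and 0.990). Among the members, r was 0.880 between DNMT1 and UHRF1, 0.854 between DNMT1 and HELLS and 0.901 between UHRF1 and HELLS. TET2 had r of -0.612, -0.824 and -0.886 with these 3 genes and 0.867 with TET1. These points share the same 6 arrays and their differences between groups, and with so few points many genes reach a high r.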

How the data were processed

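RNA of 6 samples was hybridised to Affymetrix human transcriptome arrays. By RMA the authors summarised core exons in Expression Console, per the labels, and the deposited values are read as log2 expression values. The submitters' processing notes name Transcriptome Analysis Console too. Versions, probe annotation, build and the base of the logarithm are not stated; base 2 was assumed, as is common for RMA, and folds depend on it. Values lay between 1.38 and 19.93, and array medians between 3.98 and 4.12.

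Of 70523 features 67528 were transcript clusters, and 33764 with a mean at or above the median of 3.98 were tested. Of all transcript clusters 23781 had 1 gene symbol, 1543 several and 42204 none here; symbols were updated to RefSeq (GRCh38.p14). A gene was taken by its brightest single-symbol transcript cluster. Group means were fitted with limma 3.58.1 (R 4.3.3) over all 6 arrays (3 residual and 2.67 prior degrees of freedom), two-sided, with Benjamini-Hochberg adjustment over all tested transcripts. Replicate numbers were compared in a fit with group and replicate (2 residual degrees of freedom). The fit was tested on simulated data. Promoters are RefSeq's, and all 8 genes matched by symbol.

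Members, gene lists and alternatives were chosen with earlier results of these data known. Named genes are the 8 members, SAT1, from each list the 4 genes with the largest difference with the mean of both hairpins (2 for markers), and the 2 genes most correlated with each member. Alternatives were other filters, options, scalings, the replicate number in the fit, only the groups compared, and each array left out.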

Additional observations from a re-analysis of the deposited data

How the results depend on the processing

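None of the 8 genes was called by limma in any comparison or alternative, while their count at an unadjusted p under 0.05 ran from 0 to 4 with sh50 and with the mean of both, and from 0 to 2 with sh52 and between the hairpins, with 1 array left out. Of 564 values of the 8 genes under alternatives 532 kept their direction and 32 turned. Other filters, fit options, the replicate number in the fit and the choice of groups cannot move an estimate. Only the scalings and the left-out arrays of a comparison could turn one, so many of the 532 were fixed by construction. DNMT1, UHRF1, HELLS and TET2 kept theirs against shGFP in every alternative, in each hairpin and in the mean of both. With quantile normalization TET3 turned to 0.013 with sh50, DNMT3B to -0.0098 between the hairpins and DNMT1 to 0.0051 between replicates. With arrays centred on their median TET3 turned to 0.015 with sh50, DNMT3A to -0.016 with sh52 and DNMT3B to -0.026 between the hairpins.

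With 1 array left out the following ranges held 0. With sh50 they were -0.029 to 0.095 for DNMT3A, -0.020 to 0.49 for TET1, -0.048 to 0.024 for TET3 and -0.86 to 0.16 for SAT1. With sh52 they were -0.023 to 0.078 for DNMT3A, -0.22 to 0.067 for DNMT3B and -1.36 to 1.63 for SAT1. With the mean of both they were -0.020 to 0.081 for DNMT3A, -0.86 to 0.64 for SAT1, -0.17 to 0.086 for MAGEA1, -0.042 to 0.10 for MAGEC2, -1.10 to 0.27 for MAT2A and -0.44 to 0.14 for MBD2. Between the hairpins they were -0.68 to 0.13 for DNMT1, -0.24 to 1.35 for UHRF1, -0.68 to 1.17 for HELLS, -0.068 to 0.056 for DNMT3A, -0.10 to 0.19 for DNMT3B, -0.30 to 0.21 for TET1 and -1.01 to 1.98 for SAT1. Between replicates they were -0.45 to 0.36 for DNMT1, -0.74 to 0.61 for UHRF1, -0.042 to 0.95 for HELLS and -0.032 to 0.018 for TET3. The cause was not tested.

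Over all transcripts the count called with sh52 against shGFP, and with sh52 against sh50, ran from 0 to 1 with 1 array left out. Between replicates it ran from 0 to 18, against 9 with all arrays, and was 4 over single-symbol transcripts, where fewer were tested, and 4 with the replicate number alone in the fit and no hairpin group. With the replicate number as a block 0 transcripts were called by limma in the hairpin comparisons. An unadjusted p under 0.05 was then given to 3503 for sh50, 3661 for sh52, 3801 for both together and 2874 for sh52 against sh50. Same-numbered deviations correlated by 0.052 between sh50 and sh52, 0.387 between sh50 and shGFP and 0.345 between sh52 and shGFP. Each was positive, and with 2 arrays a group a positive value means that each array went best with its own number. The main fit did not take the numbers as pairs, and these values give no ground for that choice. The counts with the number as a block are those given above. With 1 array left out the median of S phase genes lay between -1.48 and -0.77, and 3 medians held 0 in their range, that of oxidised base repair and TET partners (-0.12 to 0.20), of mesenchymal and glial markers (-0.014 to 0.28) and of epithelial markers (-0.023 to 0.14). Each member had 1 transcript cluster, so averaging over transcript clusters changed nothing by construction. Precision is limited by 2 arrays a group and, for DNMT3A, DNMT3B, TET1 and TET3, by dim signals.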
